A study of Mus musculus with 8 samples.

Results

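Ube2d3, Ube4b, Usp46 and Psma6 are 4 genes of the ubiquitin-proteasome system, here described in mature (metaphase II) mouse oocytes. They were chosen by gene name from a deposited table of 417 gene names in 469 rows, and they hold 5 of those rows, 2 of them for Ube4b. The choice was made with the contrast between the groups known, so the differences of these genes between the groups are given as a description, without a test. The table compares 4 libraries of L/L cre females (labelled KO) with 4 libraries of L/L females (labelled Ctrl, genotype WT), all of about 6 months. Both groups carry the L/L allele, and the KO group also carries cre, which encodes an enzyme that cuts out DNA flanked by its target sites. The labels name neither the gene at the L/L allele nor the promoter that drives cre, so loss of the target was not checked here. The design text asks how the transcripts of mature oocytes change when reactive oxygen species rise in the mitochondrial matrix. Each library came from merged oocytes, amplified by Smart-seq2, which copies whole transcripts from minute amounts of RNA. Nothing in the labels says that the libraries came from separate females, so p-values measure the spread between these libraries, which may be technical.

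Ubiquitin is a small protein that cells attach to other proteins as a tag. An E1 enzyme activates it, an E2 enzyme carries it on a cysteine, and an E3 ligase passes it to the substrate, while deubiquitinases take it off again. Chains of ubiquitin can send a protein to the proteasome, a barrel-shaped protease. Meiosis in the oocyte needs this system, since the anaphase-promoting complex, an E3 ligase, drives the destruction of cyclin B and securin. Ube2d3 is an E2 enzyme that works with many ligases. Ube4b is a U-box ligase that extends existing chains, known as an E4 activity. Usp46 is a deubiquitinase that is active in complex with the WD40 proteins Wdr48 and Wdr20, and Psma6 is a subunit of the outer (alpha) rings of the 20S core of the proteasome.

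The values are in TPM, which correct for transcript length and sum to 1000000 over a full library, so levels can be set side by side between genes. A row carries a gene name and no transcript identifier, and is read here as 1 transcript. A value therefore stands for the listed row and not for the gene's whole output. This matters for all 4 genes. GENCODE M21 annotates 16 transcripts of Ube2d3 (chromosome 3, 135438149 to 135468198, GRCm38), 10 of them protein coding. It annotates 12 of Ube4b (chromosome 4, 149328416 to 149426749), of which 1 is protein coding. Usp46 (chromosome 5, 73998453 to 74068431) has 6, with 4 coding, and Psma6 (chromosome 12, 55384222 to 55418454) has 4, with 2 coding. Of the 16 Ube2d3 transcripts the table lists 1 row, and which one it is could not be read from it.

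Ube2d3 and Usp46 each have a close relative with the same active site, which the coding sequences around the catalytic cysteine show. Both pairs are printed because their coding sequences could in principle share reads. Each stretch holds 63 bases from GENCODE M21 (GRCm38), read 5′ to 3′ along the coding strand, with the codon of the catalytic cysteine in the middle (codon 85 in Ube2d3 and Ube2d1, 44 in Usp46 and 48 in Usp12). Capitals mark bases that differ between the 2 genes of a pair.
Ube2d3: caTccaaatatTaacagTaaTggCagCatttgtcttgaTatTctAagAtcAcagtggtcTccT
Ube2d1: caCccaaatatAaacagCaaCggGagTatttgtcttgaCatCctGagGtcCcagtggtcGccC
Usp46: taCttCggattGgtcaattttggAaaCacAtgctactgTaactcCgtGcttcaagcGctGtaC
Usp12: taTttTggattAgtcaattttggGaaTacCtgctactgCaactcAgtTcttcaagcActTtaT
The pairs differ at 13 and 12 of the 63 bases, yet all 21 codons of each window code for the same residues. Over the whole coding sequence the longest identical run was 11 bases for Ube2d3 and Ube2d1 and 20 bases for Usp46 and Usp12, and neither pair shared a stretch of 31 bases, the length that kallisto uses by default to assign reads. Of the other relatives of Ube2d3, Ube2d2b shared no such stretch and Ube2d2a shared 14 (0.12% of its own). Ube2d3 has nearer copies elsewhere. The processed pseudogenes Gm13331, Gm15361 and Gm4596 matched its transcripts at 95.5%, 97.0% and 97.3% identity over 448, 435 and 438 bp, and between 34.7% and 46.4% of their 31-base stretches also occur in Ube2d3. None of the 3 has a row in the table, and how reads were split between them and Ube2d3 was not tested. No transcript of another gene matched Ube4b, Usp46 or Psma6 at 95% identity over 200 bp.

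The table as a whole sets the frame. The smallest fold between group means in any row was 2.04, so the rows are a preselected list. The limma adjusted p-values come from these rows alone, so they cannot be taken at face value. Of 402 genes averaging 1 TPM or more, 377 (93.8%) passed the limma adjusted p threshold of 0.05, 147 higher (36.6%) and 230 lower (57.2%) in KO. The table covers 3.20% to 4.25% of the TPM total in the Ctrl libraries and 1.29% to 1.99% in the KO libraries. Sequencing depth is unknown. KO library 1 was the KO library nearest to the Ctrl mean in 42.0% of the 402 genes, and KO library 2 in 6.47%. No marker among 38 fixed for oocytes, cumulus and granulosa cells, stroma, blood and endothelium has a row, so the cell type was not checked here and a part of other cells in these values was not tested.

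The E2 enzyme Ube2d3 was listed at 0 TPM in all 4 Ctrl libraries. In KO libraries 1, 2, 3 and 4 it was at 1.45, 745, 1.77 and 1.92 TPM. All KO libraries lay above all Ctrl libraries, as in 21.3% of all rows, but KO library 2 alone stood 387-fold above the next highest library, and it held 99.3% of the Ube2d3 TPM of the 8 libraries. In that library Ube2d3 was at rank 5 of the 469 rows and made up 5.79% of all listed TPM. In the other KO libraries it stood between ranks 315 and 340. Since Ctrl was listed at 0, no fold is given. The difference in mean log2(TPM + 1) was 3.46 with KO library 2 and 1.44 without it. The other 3 KO libraries lay close together, at 1.71 ± 0.239 TPM (SD, n = 3).

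Of the 469 rows, 3 (0.64%) were at exactly 0 in every Ctrl library, and 3 in every KO library. The genes were chosen with attention to rows at 0 in 1 whole group, so this share says nothing more about Ube2d3. Rows were also counted in which 1 library stood at least 100-fold above the next of its group. The highest had to reach 1 TPM and the next 0.001 TPM. Rows with every other library of the group at 0 were thus not counted. There were 3 such rows in Ctrl and 4 in KO, those of Iqcg, Ube2d3, Col4a3bp and Adk. Apart from Ube2d3, these KO rows reached between 1.38 and 13.9 TPM. These rows were counted after the Ube2d3 values were seen. The spread of Ube2d3 over the libraries was most like those of Ect2, Ptbp1 and Sap18, each highest in KO library 2. Likeness is measured here as the overlap of 2 genes' shares, where a share is a library's part of a gene's summed TPM over the 8 libraries. The overlap was 84.3% for Ect2, 84.0% for Ptbp1 and 81.6% for Sap18, against a median of 6.67% over 401 genes. Since KO library 2 held 99.3% of the Ube2d3 TPM, this overlap is nearly a gene's own share in that library. The most similar genes thus had to be highest there. In Ptbp1 and Sap18, unlike Ube2d3 and Ect2, the KO libraries did not all lie above the Ctrl libraries. Ect2 was at 40.9 TPM in KO library 2 and at 1.14 to 4.17 TPM in the other KO libraries.

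**Figure D1:**
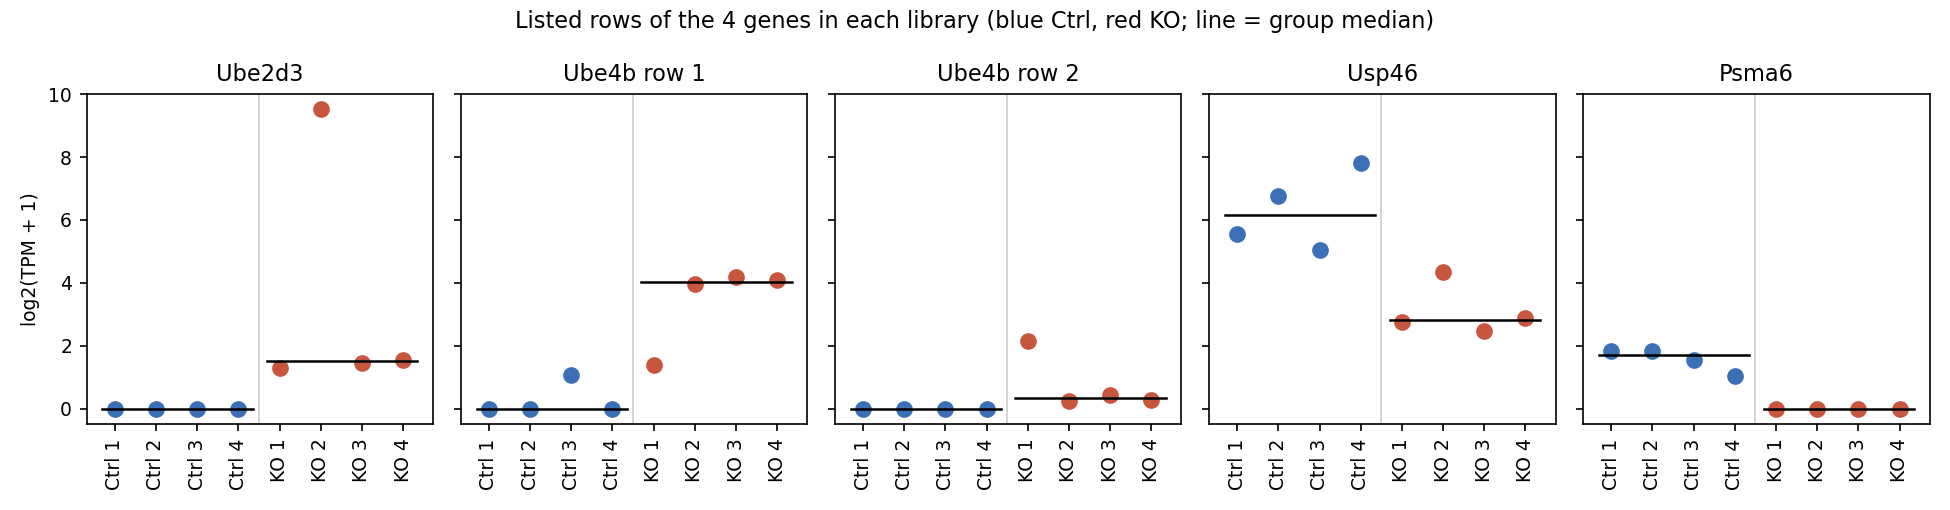
Level of each listed row of Ube2d3, Ube4b, Usp46 and Psma6 as log2(TPM + 1) in the 4 Ctrl (blue) and 4 KO (red) libraries, with 1 point per library and a line at the group median. Ube2d3 reached 745 TPM in KO library 2 and at most 1.92 TPM elsewhere. The groups overlapped in none of these rows, as in 21.3% (KO above) and 35.8% (KO below) of all rows.

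The ligase Ube4b was at 0 or near 0 in Ctrl and present in every KO library. Its first row was at 0, 0, 1.10 and 4.97e-06 TPM in Ctrl libraries 1 to 4 and at 1.65, 14.7, 17.1 and 16.0 TPM in KO libraries 1 to 4. KO library 1 was close to Ctrl library 3 in this row, and the other 3 KO libraries were at similar levels to each other. The second row was at 0 in Ctrl libraries 1, 2 and 3 and at 1.69e-08 TPM in Ctrl library 4. In KO it was at 3.41, 0.178, 0.340 and 0.222 TPM, so here KO library 1 was the highest. In both rows the 4 KO libraries lay above the 4 Ctrl libraries, as in 21.3% of all rows.

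The rows of Ube4b thus had unequal parts in the KO libraries. The second row made up 67.5% of the Ube4b sum in KO library 1, and 1.19%, 1.95% and 1.36% in KO libraries 2, 3 and 4. Summed over both rows, Ube4b was at 5.06, 14.9, 17.5 and 16.3 TPM in the KO libraries, against 1.10 TPM or less in Ctrl. The difference of the sum in mean log2(TPM + 1) was 3.46 ± 0.46 (SE of the difference), and 0.77 for the second row alone. Only KO library 1 held more of the second row than of the first. With 1 protein coding transcript of Ube4b in GENCODE M21, at least 1 of the 2 rows may not code for the ligase. Which one could not be read from the rows, so the sum may include RNA that codes for no ligase. The genes whose spread over the libraries was most like that of Ube4b were Shprh, Gtf3c2 and Tanc2, with overlaps of 86.6%, 86.3% and 84.3% against a median of 31.9% over 401 genes. Shprh is itself a RING ligase, which adds ubiquitin to the replication clamp PCNA.

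**Figure D2:**
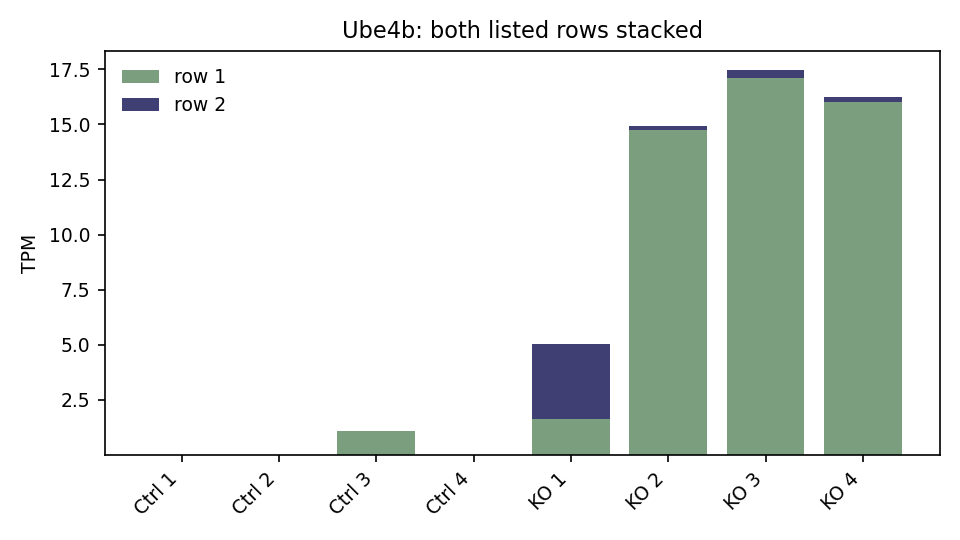
TPM of the first (green) and second (dark blue) listed row of Ube4b, stacked, in each of the 8 libraries. The second row was the larger part in KO library 1 (67.5% of the sum) and at most 1.95% in the other KO libraries.

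By its listed row, the deubiquitinase Usp46 was the most abundant of the 4 in every Ctrl library and was lower in KO. It was at 45.6, 107, 31.7 and 226 TPM in Ctrl libraries 1 to 4 and at 5.76, 19.5, 4.56 and 6.35 TPM in KO libraries 1 to 4. Every KO library lay below every Ctrl library, as in 35.8% of all rows. The Ctrl libraries spread 7.11-fold from lowest to highest, with libraries 2 and 4 high, and KO library 2 was the highest of its group. The Ctrl mean was 102 ± 88.3 TPM (SD, n = 4) and the KO mean 9.05 ± 7.02 TPM (SD, n = 4), an 11.3-fold difference. On the log2(TPM + 1) scale the difference was -3.17 ± 0.76 (SE of the difference).

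Genes with a spread over the libraries like that of Usp46 were also high in Ctrl libraries 2 and 4. They were Dnaja1, an Hsp40 chaperone, with an overlap of 90.1%, and the DEAD-box genes Ddx46 and Ddx41, with 89.5% and 88.8%. The median overlap with Usp46 was 61.7% over 401 genes. Dnaja1 was at 89.2 and 155 TPM in Ctrl libraries 2 and 4, and at 31.6 and 8.40 TPM in Ctrl libraries 1 and 3. Unlike Usp46, all 3 were at or near 0 in KO library 2, with at most 0.0101 TPM.

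The WD40 partners of Usp46 both have a row, and they differed in direction. Wdr48, which binds and activates Usp46, was at 17.7, 17.9, 11.5 and 32.4 TPM in Ctrl and at 10.9, 2.83, 9.13 and 4.08 TPM in KO. It fell by 1.49 on the log2(TPM + 1) scale (SE 0.48, limma adjusted p = 0.018). Wdr20, the second partner, was at 14.3, 7.04, 13.7 and 10.7 TPM in Ctrl and at 18.1, 34.7, 20.4 and 26.7 TPM in KO. It rose by 1.06 (SE 0.40, limma adjusted p = 0.0262). In neither gene did the groups overlap, as in 35.8% (KO below) and 21.3% (KO above) of all rows. The Wdr20 call was lost without Ctrl library 2, KO library 2 or KO library 4 (limma adjusted p up to 0.0685). That of Wdr48 did not hold under median-of-ratios scaling (limma adjusted p = 0.107) or quantile normalization (0.052). The ratio of Wdr20 to Wdr48, which scaling of a library leaves as it is, ran from 0.329 to 1.19 in Ctrl and from 1.66 to 12.3 in KO. With Wdr20 higher and Wdr48 lower in every KO library, these ranges had to lie apart. The ratio of Usp46 to Wdr48 ran from 2.58 to 6.95 in Ctrl and from 0.50 to 6.91 in KO, so there the groups overlapped. Both ratios were formed after the values were seen and were not tested.

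**Figure D3:**
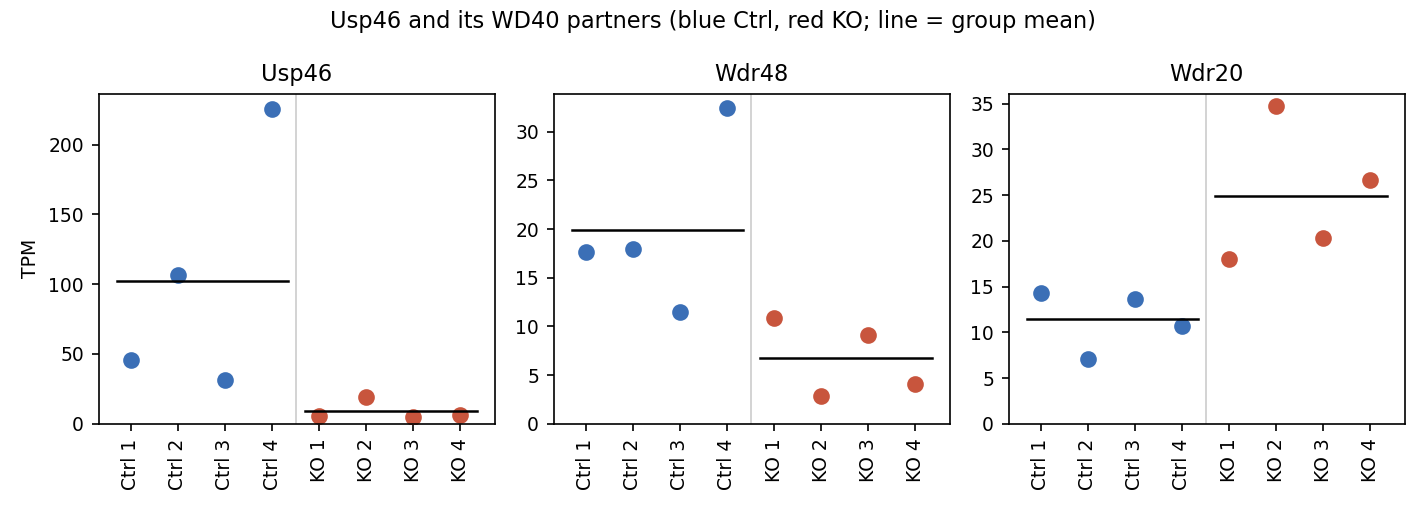
TPM of Usp46, Wdr48 and Wdr20 in the 4 Ctrl (blue) and 4 KO (red) libraries, each panel on its own axis from 0, with a line at the group mean. Usp46 and Wdr48 were lower and Wdr20 was higher in all 4 KO libraries than in all 4 Ctrl libraries. Of all rows, 35.8% were separated with KO below and 21.3% with KO above.

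The proteasome subunit Psma6 was low in the Ctrl libraries and all but absent from the KO libraries. It was at 2.58, 2.61, 1.93 and 1.07 TPM in Ctrl libraries 1 to 4, a narrow range beside that of Usp46. In KO it was listed at 0 in libraries 1, 2 and 3 and at 3.63e-06 TPM in library 4. Rows under 0.001 TPM in every KO library made up 1.07% of the table, 5 of 469, and as many were so in every Ctrl library. The genes were chosen with attention to such rows. No fold is given. The difference in mean log2(TPM + 1) was -1.57 ± 0.19 (SE of the difference), and between -1.75 and -1.48 with any 1 library left out. With KO at or near 0, this SE and range come from the Ctrl libraries, and leaving out a KO library could not move the difference. Its size depends on the pseudocount, and one of 0.1 gave -4.35. The most similar spread over the libraries was that of Eri1, an RNA exonuclease, with an overlap of 88.7%, followed by Gnb2 and Ercc5 with 81.9% and 81.3%, against a median of 54.3% over 401 genes. No other gene of the 20S core and none of the 19S regulatory particle had a row, so these were not analysed here. RefSeq gives Psma6 2 transcription starts, and whether the listed row is its main transcript is unknown.

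The order of the 4 genes, by their listed rows and with those of Ube4b summed, changed between the groups. It need not be the order of the genes' whole output. In Ctrl, Usp46 was first and Psma6 second in all 4 libraries, with Ube4b and Ube2d3 at 0 or up to 1.10 TPM. In KO the order was not shared. Ube4b led in libraries 3 and 4, Usp46 in library 1 and Ube2d3 in library 2. Psma6 was last in all 4. In the KO libraries Ube4b (5.06 to 17.5 TPM) and Usp46 (4.56 to 19.5 TPM) overlapped, so their order there lies within their spread. The 4 genes did not share a pattern over the libraries. The overlap of their shares was 54.3% for Usp46 and Psma6, both lower in KO, and 27.9% for Ube2d3 and Ube4b, both higher in KO. Each of these overlaps was at or below the median of its genes with all others, except that 27.9% was above the median of 6.67% for Ube2d3.

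The rest of the ubiquitin system was read from lists set by gene symbol for each role. The lists hold 807 protein coding genes of GENCODE M21 beside the 4, of which 29 had a row and 28 were tested. The remaining one, Klhl25, had a mean under 1 TPM. Of the 28, 10 rose, 15 fell and 3 did not pass in limma, which is 89.3% called against 93.8% of all genes tested. The median difference in log2(TPM + 1) was -1.01 in the lists and -1.05 over all genes tested. Without KO library 2, 4 rose and 9 fell. Without Ctrl library 2, 5 rose and 7 fell. The risers numbered 6 without KO library 3 and 5 without KO library 4. Median-of-ratios scaling, which moved the median of all genes by 0.71, gave 10 higher and 0 lower (0 lower also at an unadjusted limma p under 0.05), and 9 of the 10 higher were among the original risers. It took the share of higher among all calls from 39.0% to 73.6%, and quantile normalization took it to 60.8%. No gene of the lists changed its sign under either scaling.

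Among deubiquitinases and their partners, 6 of 8 fell, 1 rose (Wdr20) and Usp34 did not pass (limma adjusted p = 0.0593), which is 87.5% called against 93.8% of all genes tested, where 57.2% fell and 36.6% rose. Usp9x, an X-linked deubiquitinase, fell, with means of 42.4 ± 9.92 TPM in Ctrl and 15.4 ± 7.79 TPM in KO (SD, n = 4 per group; limma adjusted p = 0.014). Usp15 fell too, with a Ctrl range of 58.9 to 167 TPM and a KO range of 31.4 to 41.8 TPM (limma adjusted p = 0.0144). Usp37 and Usp19 fell as well, with calls that were lost without Ctrl library 2 or KO library 2. The groups of Usp19 overlapped, with KO library 4 (31.7 TPM) above Ctrl library 1 (22.2 TPM). The call of Atxn3, the Josephin-domain deubiquitinase, was lost without KO library 1 or 4, and its groups overlapped. Without Ctrl library 2 the mean of Atxn3 was under 1 TPM, so it was not tested there. None of the 6 falls passed under median-of-ratios scaling, where their sign stayed the same.

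Among HECT, RING and U-box ligases, 6 of 12 rose, 5 fell and Rnf170 did not pass (limma adjusted p = 0.0634), which is 91.7% called, beside 36.6% higher and 57.2% lower over all genes tested. Shprh was at 0 TPM in 3 Ctrl libraries and 0.763 TPM in Ctrl library 3, and at 1.49 to 2.92 TPM in KO (log2 difference 1.45 ± 0.34 SE, limma adjusted p = 0.00671). Traf7 rose, with means of 5.09 ± 2.15 TPM in Ctrl and 15.8 ± 3.80 TPM in KO (SD, n = 4 per group; limma adjusted p = 0.014). Both calls held under both scalings. That of Traf7 also held without any 1 library, and that of Shprh in every such fit that tested it. Without KO library 4 the mean of Shprh was under 1 TPM, so it was not tested there. The Ctrl mean of Shprh was 0.191 TPM, so it passed the filter only through the KO libraries. Dtx2, a RING ligase of the Notch pathway, was the most abundant, with 329 ± 68.1 TPM in Ctrl and 703 ± 248 TPM in KO (SD, n = 4 each, over its 4 rows). Its call was lost without Ctrl library 2 or KO library 3 (limma adjusted p up to 0.0596), and KO library 1 (406 TPM) lay below Ctrl library 3 (408 TPM). The HECT ligases Ube3b and Herc2 rose, Nedd4 fell, and all 3 calls were lost when certain single libraries were left out. Rnf165 rose, while Brca1, Rnf214, Rnf219 and Trim24 fell, and these 5 calls were also lost without certain libraries. The groups overlapped in Herc2, Nedd4, Brca1 and Rnf219.

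Among cullin-RING ligases and their regulators, 2 of 6 rose, 3 fell and Ddb1 did not pass (limma adjusted p = 0.07), which is 83.3% called against 93.8% of all genes tested. Ddb1, an adaptor of cullin-4 ligases, did pass, higher in KO, with quantile normalization (limma adjusted p = 0.0273) and with median-of-ratios scaling (0.0198). Of the genes that fell, Cand1, which exchanges the substrate receptors of cullin-1, had a Ctrl range of 12.1 to 17.0 TPM and a KO range of 0.526 to 8.90 TPM (log2 difference -1.75 ± 0.57 SE, limma adjusted p = 0.0185). Cops2, a subunit of the COP9 signalosome that takes Nedd8 off cullins, had a Ctrl mean of 65.5 ± 13.2 TPM and a KO mean of 31.2 ± 12.0 TPM (SD, n = 4 per group), a call lost without Ctrl library 2 (limma adjusted p = 0.0514). Glmn, which binds Rbx1 and blocks cullin ligases, had means of 40.3 ± 11.7 and 17.8 ± 6.45 TPM (SD, n = 4 per group), a call lost without KO library 2 (0.0522). All 3 calls were lost under median-of-ratios scaling. One of the risers was Kctd3, listed at 0 in 3 Ctrl libraries and at 1.28 TPM in Ctrl library 2, with a KO range of 1.65 to 5.57 TPM (log2 difference 1.49 ± 0.42 SE, limma adjusted p = 0.0136). Its call held under both scalings and in every fit without 1 library that tested it. Without KO library 2 the mean of Kctd3 was under 1 TPM, so it was not tested there. Its Ctrl mean was 0.319 TPM, so it passed the filter only through the KO libraries. Klhl25, which was not tested, had a Ctrl range of 0 to 0.311 TPM and a KO range of 0.545 to 3.62 TPM.

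Of the anaphase-promoting complex, the subunit Cdc27 had a row. Its Ctrl range was 0.523 to 1.30 TPM, and it stood at 1.52, 13.8, 3.67 and 2.01 TPM in KO libraries 1 to 4, highest in KO library 2 as Ube2d3 was. Its call (log2 difference 1.27 ± 0.54 SE, limma adjusted p = 0.0376) was lost without KO library 2 and without 5 other libraries in turn (adjusted p up to 0.107), and under median-of-ratios scaling (0.0525). Senp6, a protease that removes chains of the ubiquitin-like protein SUMO, fell, with a Ctrl mean of 19.2 ± 10.1 TPM and a KO mean of 4.67 ± 3.22 TPM (SD, n = 4 per group; limma adjusted p = 0.014). Median-of-ratios scaling ended this call (0.101). No gene for ubiquitin itself, an E1 enzyme, another E2 enzyme or the p97 segregase had a row. These were not analysed here.

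**Figure D4:**
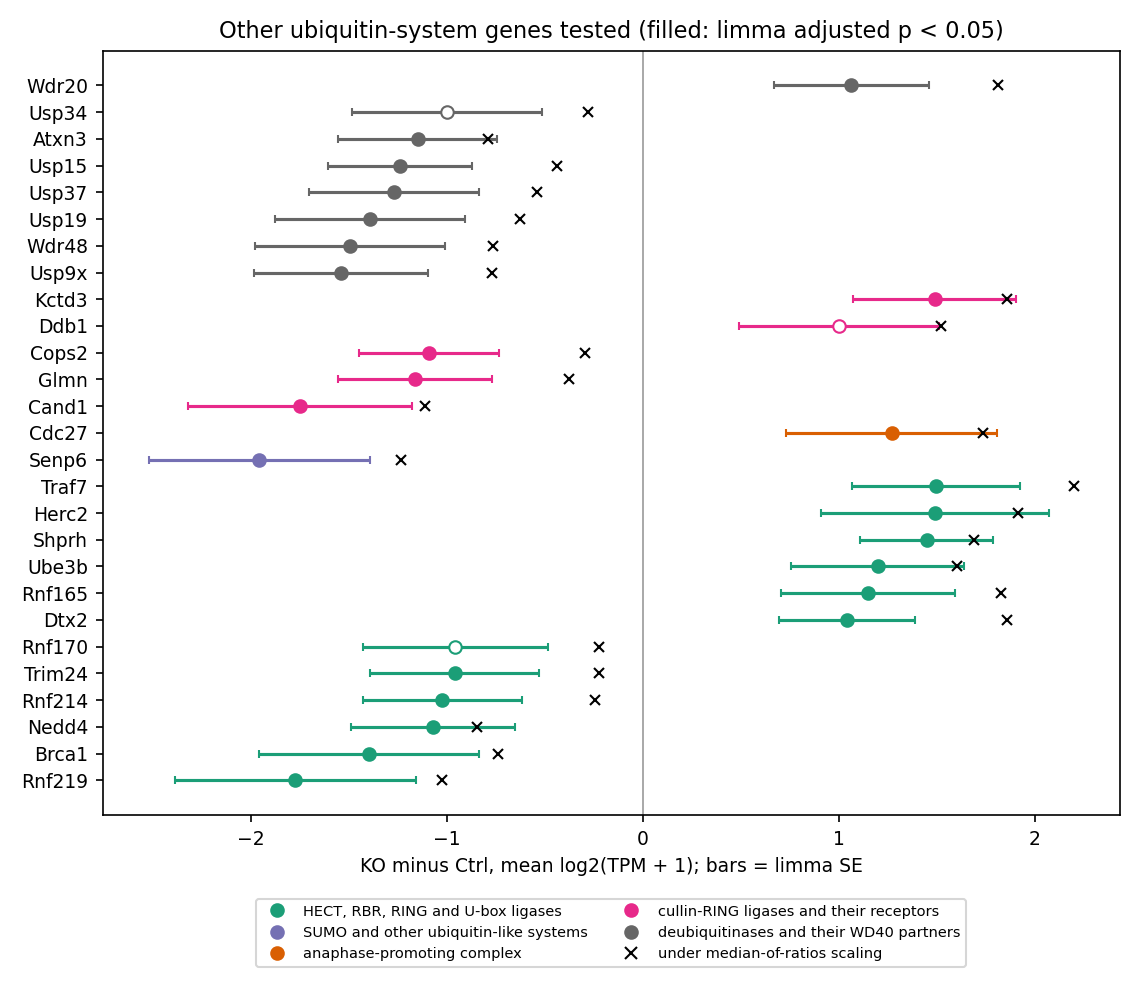
KO minus Ctrl difference in mean log2(TPM + 1) for 27 of the 28 other ubiquitin-system genes tested, coloured by list, with limma standard errors as bars and filled points for genes past the adjusted p threshold of 0.05. Crosses give the same difference under median-of-ratios scaling, which lies to the right of the main value for every gene and leaves each sign as it was.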

How the data were processed

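The deposited values are TPM in 469 rows and 8 columns, each matched to a library through its column header. The authors used kallisto 0.46.2 and sleuth 0.30.1 with GRCm38, per the submitters' processing notes. The sources used here give neither the annotation release nor the rule that chose the rows. No 2 libraries were identical. Rows of a gene name were summed (417 genes), genes averaging 1 TPM or more kept (402, among them all 4 members), and log2(TPM + 1) fitted with limma 3.58.1 in R 4.3.3 (eBayes with trend, two-sided, Benjamini-Hochberg adjustment, threshold 0.05), a step tested on simulated data. The pseudocount understates changes of low genes. Values under 0.001 TPM count as 0 where named so. A TPM of 0 can be a failed estimate.

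The members and lists were chosen with earlier results of these data known. Named were the 4 genes, every list gene with a row (except 1 that is not reported here), and the 3 genes of most similar spread per member. Gene models come from GENCODE M21 (GRCm38), where 416 of 417 names matched. Near copies were searched with megablast (blastn 2.17.0). Figures and other values were made with Python 3.11.15. As alternatives, pseudocounts of 0.1 and 5 were tried, then no filter or at least 5 TPM, both scalings, unsummed rows, eBayes without trend, the replicate block, and each library left out.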

Additional observations from a re-analysis of the deposited data

Results flagged for a closer look

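In each group of 4 libraries, the highest or lowest value was set against the others by Dixon's test at its 95% critical value, with values under 0.001 TPM taken as 0. Of 68 groups, 3 were at 0 throughout and had no such value, and 14 values stood apart in the other 65. In 4 of these groups, the Ctrl groups of the first row of Ube4b, Herc2, Kctd3 and Shprh, 3 libraries were at 0, so the lone value above 0 stands apart by construction. In normally distributed values chance flags about 1 in 20 groups, a rate that need not hold here. The library with the most such values was KO library 2. There Ube2d3 (745 TPM), Usp46 (19.5 TPM) and Kctd3 (5.57 TPM) were high and Usp34 (2.71 TPM) was low. KO library 1 stood apart in both rows of Ube4b, low in the first (1.65 TPM) and high in the second (3.41 TPM). KO library 3 was high in Nedd4 (1.59 TPM) and KO library 4 low in Rnf214 (6.81 TPM). Among the Ctrl libraries, library 2 was high in Cops2 (85.3 TPM), Herc2 (3.44 TPM) and Kctd3 (1.28 TPM), library 3 in the first row of Ube4b (1.10 TPM) and in Shprh (0.763 TPM), and library 4 in Klhl25 (0.311 TPM). Causes were not tested.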

How the results depend on the processing

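Every member kept its direction under all alternatives run. The groups of each member did not overlap, so no alternative but the scalings could have reversed it. With any 1 library left out, the difference in log2(TPM + 1) ran from 1.44 to 4.19 for Ube2d3, from 3.30 to 3.84 for Ube4b, from -3.59 to -2.66 for Usp46 and from -1.75 to -1.48 for Psma6. Leaving out a Ctrl library for Ube2d3 or a KO library for Psma6 could not move it, since those values lay at or near 0. A pseudocount of 0.1 gave 6.34 for Ube2d3, 6.04 for Ube4b and -4.35 for Psma6, and one of 5 gave 1.74 for Ube4b and -0.49 for Psma6; values near 0 move with the pseudocount by construction. Psma6 was at -1.31 under median-of-ratios scaling, and the second row of Ube4b alone, added after seeing the data, gave 0.77. A minimum of 5 TPM, which tests fewer genes and leaves out Psma6, gave 74 higher and 139 lower genes, with 4 of the ubiquitin lists higher. Lower genes numbered 52 with median-of-ratios scaling and 94 with quantile normalization, and 0 and 2 in the lists (0 and 7 at an unadjusted limma p under 0.05). Both scalings were computed from rows picked for their difference. Leaving out 1 library gave 71 to 139 higher and 107 to 222 lower genes, and 4 to 9 and 7 to 16 in the lists. With each library left out in turn, 3 of the 10 higher and 5 of the 15 lower list calls were kept wherever the gene was tested. Of these, Kctd3 without KO library 2 and Shprh without KO library 4 averaged under 1 TPM and were not tested. Both passed the filter only through the KO libraries, so whether their calls hold without those libraries is unknown. With the replicate block, 112 genes were higher and 167 lower, and 7 and 11 in the lists. The numbers share no source in the labels, and same-numbered libraries correlated at -0.26 to 0.07 in their deviations, so they were not taken as pairs.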
